A study of Mus musculus with 10 samples.

Results

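The genes described here encode nuclear subunits of the 5 complexes of oxidative phosphorylation and their isoforms. They were taken by gene symbol: every probe whose symbol begins with Nduf followed by a, b, c, s or v and a number, is Sdha, Sdhb, Sdhc or Sdhd, or begins with Uqcr, Cox4 to Cox8 or Atp5. The rule found 129 probes of 31465 probes with a gene name, and these named 85 genes. Of these, 83 passed the filter on low signal and were among the 16650 genes tested, and Cox8b and Cox8c did not pass. The symbols put 36 tested genes in complex I (NADH dehydrogenase), 4 in complex II (succinate dehydrogenase), 8 in complex III (the cytochrome bc1 complex), 18 in complex IV (cytochrome c oxidase, with Ndufa4 and its paralogue) and 17 in complex V (ATP synthase). The 13 subunits encoded by mitochondrial DNA were not analysed here.

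Oxidative phosphorylation makes ATP in the inner mitochondrial membrane. Complexes I and II pass electrons from NADH and succinate to ubiquinone, complex III passes them to cytochrome c, complex IV passes them to oxygen, and ATP synthase uses the proton gradient built by complexes I, III and IV. Most subunits come from a single gene that nearly every tissue expresses, but several small subunits of complex IV have a second gene with a restricted pattern, such as the heart and skeletal muscle isoforms Cox6a2, Cox7a1 and Cox8b, the testis isoforms Cox6b2 and Cox8c and the lung isoform Cox4i2. In the testis, the supporting Sertoli cells are known for strong glycolysis and for passing lactate to germ cells.

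RNA from mouse cells in culture was measured with Cy3 dye on 10 Agilent arrays, 1 sample on each. The first group was 4 arrays of induced embryonic Sertoli-like cells (ieSCs) that came from tail tip fibroblasts (TTFs) of female mice, and the second was 4 arrays of ieSCs made from mouse embryonic fibroblasts (MEFs). Both kinds of ieSC carried transgenes for Nr5a1, Wt1, Dmrt1, Gata4 and Sox9, factors of gonad development switched on by doxycycline, and had grown for 2 weeks after doxycycline was withdrawn. The third group was 2 arrays of MEFs with no transgene, cultured for 2 weeks. Both MEF arrays carry the same name, so the fit below treats them as a block as well. The labels do not say whether they are separate cultures. All 3 groups came from the background labelled "Congenic, homo R26-M2rtTA", whose cells make the doxycycline-dependent activator, and all were grown in F12/DMEM at 20% O2 and 5% CO2. No array of unconverted TTFs was among the samples, so TTF-derived ieSCs were set against MEFs and against MEF-derived ieSCs. Each kind of ieSC has names 1 and 2 with 2 arrays per name, called 1a, 1b, 2a and 2b below. Whether a name is a clone, a culture or an animal is not stated in the labels, and the p-values measure only the spread between these arrays, part of which may be technical.

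Values are log2 array intensities as deposited, and a difference of 1 is a doubling. Differences are given with their standard error (SE) from a limma fit over all 16650 genes and all 10 arrays, with 2 arrays of the same name treated as a block, and a gene passed when its Benjamini-Hochberg adjusted p was under 0.05. The 2 MEF arrays serve as controls for both kinds of ieSC, so those comparisons are not independent of each other. With so few arrays, groups often did not overlap. Of all genes, 76.3% had no overlap in MEF-derived ieSCs against MEFs, 72.1% in TTF-derived ieSCs against MEFs and 48.3% between the kinds of ieSC. In the same order this held for 58, 50 and 47 of the 83 subunit genes, so no overlap below describes the arrays only. Most subunit genes were bright: the mean level of 69 of the 83 lay above the 90th percentile of the named probes, with a median percentile of 96.7. Of 16 Sertoli cell markers 14 were tested, and 9 were higher and 2 lower in TTF-derived ieSCs than in MEFs. The counts were the same in MEF-derived ieSCs. Of all genes, 23.3% were higher and 21.9% lower in TTF-derived, and 27.2% and 24% in MEF-derived ieSCs. Amh and Fshr, also classical Sertoli cell genes, did not pass the filter. The list holds Wt1, Gata4 and Sox9, which the cells carried as transgenes, so these are not independent markers. Wt1 averaged 17.06 in TTF-derived ieSCs, 17.12 in MEF-derived ieSCs and 11.49 in MEFs. In the same order Sox9 averaged 7.48, 7.96 and 11.18, and Gata4 5.61, 5.77 and 7.59. Of 13 fibroblast markers, 1 was higher and 10 were lower in TTF-derived ieSCs than in MEFs, and 0 were higher and 9 lower in MEF-derived ieSCs. Thy1, a fibroblast surface protein, averaged 4.54 in TTF-derived ieSCs, 5.33 in MEF-derived ieSCs and 17.24 in MEFs, whereas the extracellular matrix gene Fn1 averaged 18.12, 18.13 and 17.83. The summed level of the list, to which the bright Fn1, Dcn and Col1a1 add most, was 19.61 to 19.82 in TTF-derived ieSCs, 19.10 to 19.56 in MEF-derived ieSCs and 20.42 to 20.46 in MEFs. Markers of macrophages moved with the MEF group: the summed level of 14 such genes was 12.58 to 12.93 in TTF-derived ieSCs, 13.001 to 13.34 in MEF-derived ieSCs and 16.74 to 16.79 in MEFs. In MEF-derived ieSCs 14 and in TTF-derived ieSCs 13 of them were lower than in MEFs. All 14 passed the filter, but C1qa, C1qc, Tyrobp, Laptm5 and Ctss did so through MEFs and averaged 3.74 to 4.85 in the ieSCs, below the filter level of 4.99 to 5.02. The part of these cells in the differences from MEFs was not tested. In such bulk samples, fewer cells of a type and less RNA per cell cannot be told apart.

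Most of the subunit genes kept levels close to those of MEFs, and a small set of complex IV isoforms differed by up to 4.30 on the log2 scale where both groups lay above the filter level. In MEF-derived ieSCs against MEFs, 21 of the 83 genes passed, 19 higher and 2 lower, which is 25.3% against 51.2% of all genes. In TTF-derived ieSCs against MEFs, 15 passed, 8 higher and 7 lower, which is 18.1% against 45.1% of all genes. Between the kinds of ieSC, 24 passed, 3 higher and 21 lower in TTF-derived cells, which is 28.9% against 36.0% of all genes. In all, 50 of the 83 genes passed in none of the 3 comparisons. Cox7b2, Cox7a1, Cox6a2, Atp5g2, Ndufa6, Ndufb9, Ndufa1 and Cox6c were higher than in MEFs in both kinds of ieSC, and Atp5o was lower in both.

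The changes were small outside the isoforms. A change of at least 2-fold that passed was seen in 4 subunit genes in MEF-derived ieSCs against MEFs (29.1% of all genes), in 7 in TTF-derived ieSCs against MEFs (25.8% of all genes) and in 5 between the kinds of ieSC (13.5% of all genes). Leaving out the 6 tested tissue isoforms, the counts were 1, 2 and 0 of 77, and the largest difference in either direction was 1.21. The median absolute difference of the 83 genes was 0.23, 0.19 and 0.24 in the same 3 comparisons, and that of all genes was 0.54, 0.47 and 0.33. Between arrays of 1 group the subunit genes also varied little, with a median SD of 0.094 in TTF-derived ieSCs, 0.089 in MEF-derived ieSCs and 0.043 in MEFs. The largest SD in MEFs was 0.53, for Cox5a. Its difference of 0.69 in MEF-derived ieSCs against MEFs did not pass.

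The median difference of the subunit genes was 0.18 in MEF-derived ieSCs against MEFs, with a median of 0.10 over all genes. In TTF-derived ieSCs against MEFs it was -0.04 (all genes 0.06), and it changed sign to 0.06 (all genes 0.16) when arrays were centred on ribosomal protein genes. TTF-derived ieSCs lay below MEF-derived ieSCs by a median of 0.23 (-0.23, all genes -0.05), with 69 of 83 differences below 0. Centring on 71 cytosolic ribosomal protein genes moved every difference by 0.41 in MEF-derived ieSCs against MEFs, by 0.10 in TTF-derived ieSCs against MEFs and by -0.31 between the kinds of ieSC. It raised the counts of genes that passed to 50 and 53 in the comparison of MEF-derived ieSCs with MEFs and in that between the kinds of ieSC. Those reference genes were themselves mostly lower in MEF-derived ieSCs, where 49 of 71 fell against MEFs. Relative to the median of all genes, the subunit genes lay at 0.08, -0.11 and -0.18 in these comparisons under both scalings.

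**Figure D1:**
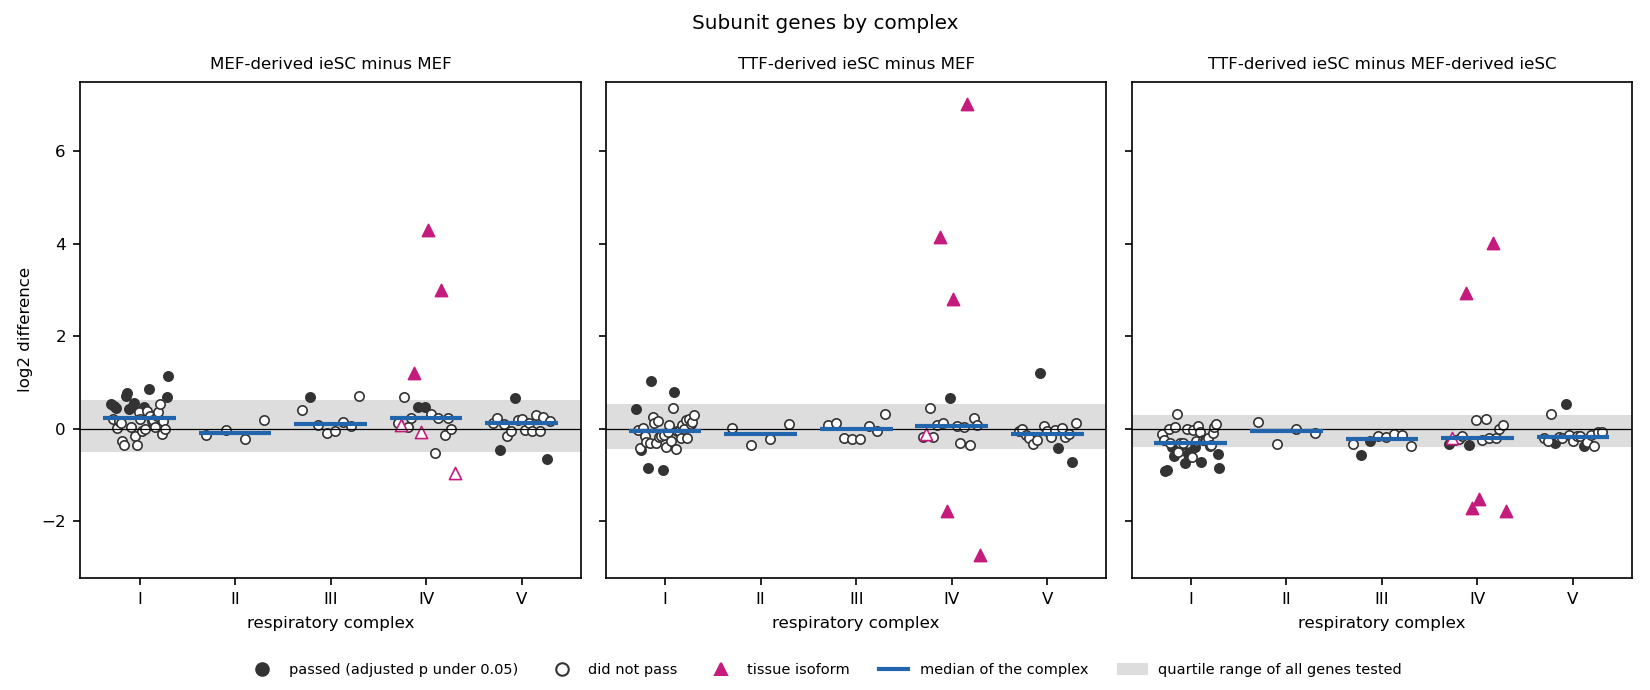
Log2 difference (vertical axis) of each tested subunit gene in the 3 comparisons, grouped by respiratory complex (horizontal axis). Filled symbols passed, open symbols did not, triangles are tissue isoforms, blue lines are medians of a complex and the grey band spans the quartiles of all genes; the large differences are triangles of complex IV, and in the right panel the blue lines lie below 0.

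The plot of differences by complex shows that the shift between the kinds of ieSC ran through complexes I, III, IV and V. TTF-derived ieSCs lay below MEF-derived ieSCs by medians of -0.30 in complex I, -0.22 in complex III, -0.20 in complex IV and -0.16 in complex V, and the 4 genes of complex II had a median of -0.05, close to that of all genes. Against MEFs, the medians of complexes I to V were 0.25, -0.08, 0.12, 0.23 and 0.13 in MEF-derived ieSCs, and with ribosomal centring that of complex II changed sign to 0.33. TTF-derived ieSCs gave medians of -0.05, -0.10, 0.00, 0.07 and -0.11 against MEFs, and with the same centring that of complex I changed sign to 0.05. The complexes were not tested against each other.

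Complex I held 12 of the 24 genes that passed between the kinds of ieSC. Of its 36 genes, 12 rose and none fell in MEF-derived ieSCs against MEFs, 3 rose and 3 fell in TTF-derived ieSCs against MEFs, and none rose and 12 fell in TTF-derived against MEF-derived ieSCs. The shares of all genes that passed in those directions were 27.2% higher in MEF-derived ieSCs against MEFs, 23.3% higher and 21.9% lower in TTF-derived ieSCs against MEFs, and 19.3% lower between the kinds of ieSC. Of 6 tested core subunits, which carry the flavin and the iron-sulphur clusters, only Ndufv2 passed in any comparison.

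Ndufv2, a core subunit with an iron-sulphur cluster, had levels of 14.37, 14.31, 14.53 and 14.65 in TTF-derived ieSCs, 14.79, 15.07, 15.02 and 15.18 in MEF-derived ieSCs and 14.39 and 14.25 in MEFs. All MEF-derived ieSC arrays were above all others, and the TTF-derived arrays overlapped with MEFs. Ndufv2 was 0.70 ± 0.19 higher in MEF-derived ieSCs than in MEFs (adjusted p = 0.014) and lower by -0.55 ± 0.16 in TTF-derived than in MEF-derived ieSCs (adjusted p = 0.024), a call that was lost without TTF-derived array 2a (adjusted p = 0.055). With the arrays of each name averaged, neither call passed (adjusted p = 0.054 and 0.088). The other core subunits Ndufs1, Ndufs3, Ndufs7, Ndufs8 and Ndufv1 had differences between -0.24 and 0.21 and did not pass.

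Among the accessory subunits, Ndufb9, Ndufa6 and Ndufa1 rose in both kinds of ieSC against MEFs. Ndufb9, a small subunit of the membrane arm, had levels of 16.85, 16.77, 16.92 and 16.87 in TTF-derived ieSCs, 16.95, 16.94, 16.91 and 16.86 in MEF-derived ieSCs and 16.08 and 16.03 in MEFs. The 8 ieSC arrays lay close together, above both MEF arrays. The difference from MEFs was 0.80 ± 0.10 in TTF-derived ieSCs (adjusted p = 0.00021) and 0.86 ± 0.10 in MEF-derived ieSCs (adjusted p = 0.00011). Ndufa6, which like Ndufb9 belongs to the LYR protein family, had levels of 15.40, 15.28, 15.39 and 15.55 in TTF-derived ieSCs, 15.16, 15.09, 15.02 and 15.10 in MEF-derived ieSCs and 14.35 and 14.40 in MEFs. The 3 groups did not overlap, with TTF-derived ieSCs highest. Its differences from MEFs were 1.03 ± 0.14 in TTF-derived ieSCs (adjusted p = 0.00022) and 0.72 ± 0.14 in MEF-derived ieSCs (adjusted p = 0.0019), and the difference of 0.31 ± 0.11 between the kinds of ieSC did not pass (adjusted p = 0.055). Ndufa1, an X-linked subunit needed for complex I assembly, was 0.43 ± 0.11 and 0.54 ± 0.11 higher than in MEFs in TTF-derived and in MEF-derived ieSCs, and the rise in TTF-derived ieSCs was lost with averaged names (adjusted p = 0.083).

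Ndufv3 and Ndufa7 rose in MEF-derived ieSCs. Ndufv3, an accessory subunit at the NADH-binding end, had levels of 16.45, 16.42, 16.27 and 16.38 in TTF-derived ieSCs, 17.31, 17.34, 17.27 and 16.97 in MEF-derived ieSCs and 16.44 and 15.70 in MEFs. The MEF-derived ieSC arrays were the highest, and the MEF arrays differed from each other more than the arrays within either ieSC group. The difference from MEFs was 1.15 ± 0.35 in MEF-derived ieSCs (adjusted p = 0.02). TTF-derived ieSCs were lower than MEF-derived ieSCs by -0.84 ± 0.28 (adjusted p = 0.044), and this call was lost when TTF-derived array 1a, 1b, 2a or 2b or MEF-derived array 1a, 1b or 2a was left out, with differences of -0.86 to -0.78. Ndufa7 was 0.77 ± 0.25 higher in MEF-derived ieSCs than in MEFs (adjusted p = 0.026), and its MEF levels of 16.37 and 15.83 lay apart. Without TTF-derived array 2a or 2b, which changes only the estimate of the spread, the adjusted p was 0.053 and 0.052. Ndufa8, Ndufb1, Ndufb6 and Ndufb10 also rose in MEF-derived ieSCs against MEFs, by 0.42 to 0.56. Ndufb6 and Ndufb10, with Ndufa2, Ndufa9, Ndufb3 and Ndufc1, were lower in TTF-derived than in MEF-derived ieSCs, by -0.34 to -0.74. Over all complexes, 7 genes rose in MEF-derived ieSCs against MEFs, were lower in TTF-derived than in MEF-derived ieSCs and did not pass in TTF-derived ieSCs against MEFs.

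Ndufa3 and Ndufb2, small accessory subunits of the membrane arm, fell in TTF-derived ieSCs. Ndufb2 had levels of 14.50, 14.56, 14.61 and 14.54 in TTF-derived ieSCs, 15.20, 15.17, 14.90 and 15.10 in MEF-derived ieSCs and 15.48 and 15.40 in MEFs. The groups did not overlap and TTF-derived ieSCs were lowest. Ndufb2 fell by -0.89 ± 0.14 against MEFs (adjusted p = 0.00068) and was lower by -0.54 ± 0.12 than in MEF-derived ieSCs (adjusted p = 0.0053). Ndufa3 had levels of 15.39, 15.54, 15.30 and 15.35 in TTF-derived ieSCs, 16.14, 16.14, 15.74 and 15.91 in MEF-derived ieSCs and 16.25 and 16.22 in MEFs. TTF-derived ieSCs were again lowest without overlap, and the difference from MEFs was -0.84 ± 0.16 (adjusted p = 0.0021). With the arrays of each name averaged, the differences of Ndufb2 and Ndufa3 between the kinds of ieSC no longer passed (adjusted p = 0.065 and 0.089).

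Ndufa11 encodes a membrane subunit of complex I, and Ndufa11b is a second mouse gene of the same name. Their probes may read near-identical transcripts, so the values of both are uncertain as separate measurements. Ndufa11 had levels of 13.33, 13.41, 13.37 and 13.16 in TTF-derived ieSCs, 14.35, 14.15, 14.19 and 14.24 in MEF-derived ieSCs and 13.72 and 13.73 in MEFs. Ndufa11b had levels of 11.93, 11.83, 11.62 and 11.65 in TTF-derived ieSCs, 12.73, 12.61, 12.62 and 12.64 in MEF-derived ieSCs and 12.15 and 12.25 in MEFs. For both, MEFs lay between the kinds of ieSC with no overlap, MEF-derived ieSCs highest. TTF-derived ieSCs were lower than MEF-derived ieSCs by -0.92 ± 0.13 for Ndufa11 (adjusted p = 0.00048) and by -0.90 ± 0.11 for Ndufa11b (adjusted p = 0.00025). Against MEFs, Ndufa11b fell by -0.45 ± 0.14 in TTF-derived ieSCs (adjusted p = 0.023) and rose by 0.45 ± 0.14 in MEF-derived ieSCs (adjusted p = 0.02). The fall was lost without the second MEF array (adjusted p = 0.065) and the rise without the first (adjusted p = 0.056), and both were lost with averaged names (adjusted p = 0.13 and 0.11). With ribosomal centring the fall was -0.34 and did not pass (adjusted p = 0.14). Ndufa11 rose by 0.50 ± 0.15 in MEF-derived ieSCs, a call lost with averaged names (adjusted p = 0.057), and its difference of -0.41 ± 0.15 in TTF-derived ieSCs did not pass (adjusted p = 0.055).

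**Figure D2:**
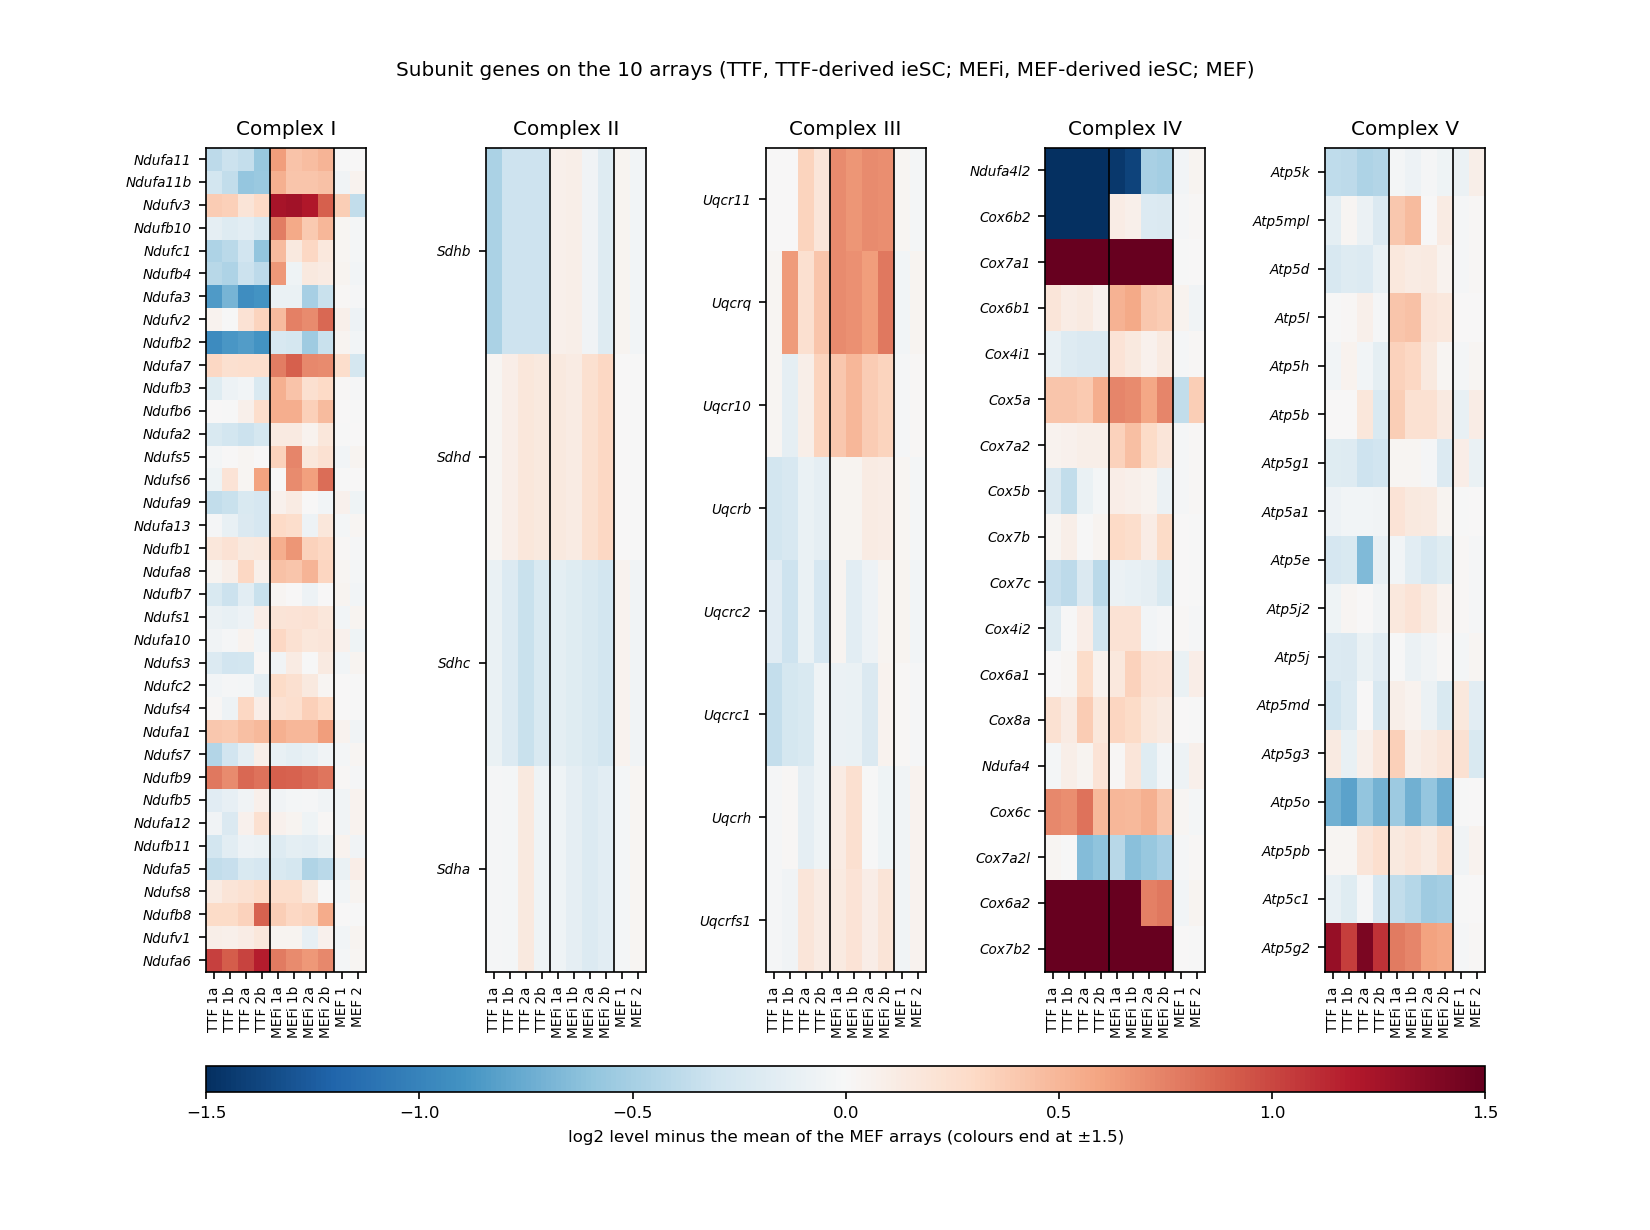
Level of each tested subunit gene on the 10 arrays minus the mean of the MEF arrays (colour, log2, ending at ±1.5), with TTF-derived ieSC arrays on the left, MEF-derived ieSC arrays (MEFi) in the middle and MEF arrays on the right. Genes of each complex are ordered by the difference between TTF-derived and MEF-derived ieSCs, and saturated colours are seen in the isoforms of complex IV.

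None of the 4 genes of complex II passed in any comparison, as the pale colours of the heat map show. Sdha and Sdhb encode the catalytic subunits, and Sdhc and Sdhd anchor them in the membrane. The complex II gene nearest to the threshold was Sdhb, with levels of 15.12, 15.27, 15.28 and 15.28 in TTF-derived ieSCs, 15.67, 15.68, 15.53 and 15.40 in MEF-derived ieSCs and 15.63 and 15.55 in MEFs. TTF-derived ieSCs were lowest without overlap, by -0.35 ± 0.14 against MEFs (adjusted p = 0.072) and -0.33 ± 0.12 against MEF-derived ieSCs (adjusted p = 0.052). Sdha, Sdhc and Sdhd had differences of -0.22 to 0.20 over the 3 comparisons. With arrays centred on ribosomal protein genes, 1 of the 4 passed as higher in MEF-derived ieSCs against MEFs and 2 passed as lower in TTF-derived against MEF-derived ieSCs.

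In complex III the 3 core subunits that the symbol rule took in did not pass, and 2 accessory subunits did. Uqcrc1 and Uqcrc2, the large matrix-facing core proteins, and Uqcrfs1, the Rieske iron-sulphur protein, had differences of -0.23 to 0.16. Uqcr11, a small subunit of the complex, had levels of 15.55, 15.55, 15.88 and 15.73 in TTF-derived ieSCs, 16.26, 16.22, 16.27 and 16.25 in MEF-derived ieSCs and 15.58 and 15.53 in MEFs. MEF-derived ieSCs lay above all other arrays, and TTF-derived ieSCs overlapped with MEFs. It was higher by 0.69 ± 0.13 in MEF-derived ieSCs than in MEFs (adjusted p = 0.0019) and lower by -0.57 ± 0.11 in TTF-derived than in MEF-derived ieSCs (adjusted p = 0.0031), which was lost with the arrays of each name averaged (adjusted p = 0.073). Uqcrb, which lies near the ubiquinone site, was lower by -0.27 ± 0.09 in TTF-derived than in MEF-derived ieSCs (adjusted p = 0.038), and this call was lost when any ieSC array other than TTF-derived 2a was left out (adjusted p = 0.056 to 0.073) and with averaged names (adjusted p = 0.2).

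Few of the broadly expressed subunits of complex IV passed. Of these 11 genes, Cox6c and Cox6b1 rose in MEF-derived ieSCs, Cox6c rose in TTF-derived ieSCs, and Cox4i1 and Cox6b1 were lower in TTF-derived than in MEF-derived ieSCs. The shares that passed were 18.2%, 9.1% and 18.2% in these comparisons, against 51.2%, 45.1% and 36.0% of all genes. Cox6c, a membrane subunit, had levels of 16.91, 16.88, 17.01 and 16.68 in TTF-derived ieSCs, 16.69, 16.68, 16.72 and 16.60 in MEF-derived ieSCs and 16.22 and 16.16 in MEFs. Every ieSC array was above both MEF arrays, and the kinds of ieSC overlapped. Its differences from MEFs were 0.68 ± 0.17 in TTF-derived (adjusted p = 0.0099) and 0.48 ± 0.17 in MEF-derived ieSCs (adjusted p = 0.04). Cox4i1, the common form of subunit 4 that takes part in the response to ATP, differed by -0.32 ± 0.09 between TTF-derived and MEF-derived ieSCs (adjusted p = 0.017). Cox6b1, which lies on the cytochrome c side, rose by 0.47 ± 0.12 in MEF-derived ieSCs against MEFs (adjusted p = 0.008) and was lower by -0.35 ± 0.10 in TTF-derived than in MEF-derived ieSCs (adjusted p = 0.019). With the arrays of each name averaged, neither call of Cox6b1 passed (adjusted p = 0.075 and 0.13), nor did that of Cox4i1 (adjusted p = 0.13). Without name 1 of the MEF-derived ieSCs, the differences of Cox6b1 and Cox4i1 between the kinds of ieSC did not pass (adjusted p = 0.085 and 0.063). Cox6a1, Cox7a2, Cox7b, Cox8a and Ndufa4, the common partners of the isoforms below, had differences of -0.24 to 0.31 and did not pass. Cox7a2l, a relative of Cox7a2 that links complexes III and IV in supercomplexes, did not pass either: its levels of 16.37, 16.33, 15.69 and 15.73 in TTF-derived ieSCs split by name, against 15.92, 15.70, 15.76 and 15.84 in MEF-derived ieSCs and 16.31 and 16.36 in MEFs.

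The tissue isoforms of complex IV carried the large differences. The 6 tested were Cox4i2, Cox6a2, Cox6b2, Cox7a1, Cox7b2 and Ndufa4l2. Ndufa4l2 is counted here as the paralogue of Ndufa4, and its calls were lost with the arrays of each name averaged. Of the 6 tested, 3 rose and none fell in MEF-derived ieSCs against MEFs, which is 50% against 51.2% of all genes. In TTF-derived ieSCs against MEFs, 3 rose and 2 fell, which is 83.3% against 45.1% of all genes. In TTF-derived against MEF-derived ieSCs, 2 rose and 3 fell, which is 83.3% against 36.0% of all genes. The promoter sequences of 2 of the isoforms, Cox7b2 and Cox7a1, are shown with those of their broadly expressed partners Cox7b and Cox7a2. They were chosen because within each pair the isoform changed against MEFs in both kinds of ieSC and the partner did not pass. Each line gives the 250 bases before the annotated start, 5′ to 3′ on the gene's strand (RefSeq, GRCm38.p6), and capitals mark the letters of the hypoxia response core (ACGTG or GCGTG, either strand).
Cox7b2 promoter (chr5:71548206-71548455, minus strand): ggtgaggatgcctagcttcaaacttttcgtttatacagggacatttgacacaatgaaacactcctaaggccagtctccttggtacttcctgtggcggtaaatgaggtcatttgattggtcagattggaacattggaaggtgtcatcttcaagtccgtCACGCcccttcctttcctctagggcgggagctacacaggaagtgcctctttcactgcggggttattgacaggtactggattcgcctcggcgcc
Cox7b promoter (chrX:106015450-106015699, plus strand): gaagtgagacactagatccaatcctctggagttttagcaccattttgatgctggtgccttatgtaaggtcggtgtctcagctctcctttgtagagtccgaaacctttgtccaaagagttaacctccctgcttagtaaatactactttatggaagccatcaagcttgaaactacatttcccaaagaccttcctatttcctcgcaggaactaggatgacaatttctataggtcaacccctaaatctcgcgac
Cox7a1 promoter (chr7:30183921-30184170, plus strand): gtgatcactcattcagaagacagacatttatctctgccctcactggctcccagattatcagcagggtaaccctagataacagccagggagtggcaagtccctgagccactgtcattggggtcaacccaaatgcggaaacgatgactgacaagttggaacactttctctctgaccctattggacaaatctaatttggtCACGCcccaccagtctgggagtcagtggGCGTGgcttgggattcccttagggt
Cox7a2 promoter (chr9:79759854-79760103, minus strand): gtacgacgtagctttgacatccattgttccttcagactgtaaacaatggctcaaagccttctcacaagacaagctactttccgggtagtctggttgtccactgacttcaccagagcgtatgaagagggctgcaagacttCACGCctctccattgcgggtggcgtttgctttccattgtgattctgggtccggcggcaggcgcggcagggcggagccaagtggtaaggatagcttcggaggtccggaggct
The core was found once in Cox7b2, on the opposite strand 93 bases before the start, at 2 places in Cox7a1, 53 and 25 bases before it, and once in Cox7a2, 111 bases before it. No match was found in this window of Cox7b. Another pair was also searched. Cox6b2, which fell only in TTF-derived ieSCs, had no match to the core. Its partner Cox6b1 had the core 111 and 88 bases before the start. Cox6a2 met the same rule of choice, but no promoter of it was available. The relation of the core to the changes was not tested.

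Cox7b2, a relative of Cox7b known from human testis, was higher in TTF-derived than in MEF-derived ieSCs and lay below the filter level in MEFs. Its levels were 10.30, 10.40, 10.48 and 10.34 in TTF-derived ieSCs, 6.40, 6.38, 6.25 and 6.38 in MEF-derived ieSCs and 3.36 and 3.35 in MEFs. The 3 groups were far apart, and the arrays of each group lay within a narrow range. TTF-derived ieSCs were higher than MEF-derived ieSCs by 4.03 ± 0.10 (adjusted p = 2.8e-08), a 16.3-fold difference. Against MEFs the difference was 7.02 ± 0.13 in TTF-derived (adjusted p = 4.1e-09) and 2.997 ± 0.13 in MEF-derived ieSCs (adjusted p = 1.2e-07). The MEF level lay below the 40th percentile of the arrays, which was 4.99 to 5.02, so Cox7b2 passed the filter through the ieSCs, and its differences from MEFs depend on the dim end of the scale and are not ranked against those of other genes.

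Cox7a1, the heart and muscle form of subunit 7a, was higher in both kinds of ieSC and highest in those from MEFs. Its levels were 11.02, 11.19, 11.81 and 11.82 in TTF-derived ieSCs, 12.82, 12.95, 13.08 and 13.005 in MEF-derived ieSCs and 8.66 on both MEF arrays. No groups overlapped, and in TTF-derived ieSCs name 2 lay above name 1. The difference from MEFs was 2.80 ± 0.24 in TTF-derived (adjusted p = 1.3e-05) and 4.30 ± 0.24 in MEF-derived ieSCs (adjusted p = 6.6e-07), and TTF-derived ieSCs were lower than MEF-derived ieSCs by -1.51 ± 0.20 (adjusted p = 0.00038).

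Cox6a2, the heart and muscle form of subunit 6a, had the opposite order in the ieSCs. Its levels were 12.55, 12.54, 12.64 and 12.70 in TTF-derived ieSCs, 10.07, 10.11, 9.22 and 9.26 in MEF-derived ieSCs and 8.42 and 8.50 in MEFs. TTF-derived ieSCs were highest, and in MEF-derived ieSCs name 1 lay above name 2. TTF-derived ieSCs were higher by 4.15 ± 0.27 than MEFs (adjusted p = 1.7e-06) and by 2.94 ± 0.22 than MEF-derived ieSCs (adjusted p = 1e-05). The rise of 1.20 ± 0.27 in MEF-derived ieSCs against MEFs (adjusted p = 0.0042) no longer passed with the arrays of each name averaged (adjusted p = 0.09). Cox6a2 and Cox7a1 thus ranked the kinds of ieSC in opposite ways, although both are muscle isoforms.

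Markers of muscle and brown fat, tissues that express Cox7a1, were also looked at, and their relation to the isoforms was not tested. Tnnc1 averaged 8.87 in TTF-derived ieSCs, 10.48 in MEF-derived ieSCs and 7.27 in MEFs, the same order as Cox7a1. Myl1 averaged 4.53, 8.34 and 5.28 in the same groups. Other markers were highest in MEFs. In the same groups Acta1 averaged 8.75, 10.93 and 11.90, Des 6.79, 8.33 and 10.61, and Tnnt2 5.35, 6.25 and 12.17. More of the muscle markers fell than rose. Of 18 striated muscle markers 15 were tested, and 1 rose and 8 fell in TTF-derived ieSCs and 2 rose and 7 fell in MEF-derived ieSCs against MEFs. Their summed level was 10.70 to 10.91 in TTF-derived ieSCs, 11.78 to 12.76 in MEF-derived ieSCs and 13.51 to 13.62 in MEFs, and Ckm, Myf5 and Myh3 did not pass the filter in any group. Of 10 brown adipocyte markers Ucp1, Elovl3 and Adipoq did not pass the filter, and 0 rose and 4 fell in each kind of ieSC against MEFs.

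Cox8b, the muscle and brown fat form of subunit 8, was not tested. Its levels were 4.50, 4.43, 4.58 and 4.38 in TTF-derived ieSCs, 4.74, 4.21, 9.22 and 3.61 in MEF-derived ieSCs and 4.47 and 4.31 in MEFs. A single array, MEF-derived 2a, was high, and 2b of the same name was the lowest of all. Cox8c, the testis form, lay between 3.03 and 3.92 on all 10 arrays.

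Cox6b2, the testis form of subunit 6b, fell in TTF-derived ieSCs. Its levels were 10.01, 9.86, 10.02 and 10.05 in TTF-derived ieSCs, 11.87, 11.83, 11.55 and 11.54 in MEF-derived ieSCs and 11.74 and 11.77 in MEFs. The TTF-derived arrays lay below all others, and MEF-derived ieSCs overlapped with MEFs. Cox6b2 was lower by -1.77 ± 0.14 than in MEFs (adjusted p = 7.4e-06) and by -1.71 ± 0.12 than in MEF-derived ieSCs (adjusted p = 5.9e-06), and its difference of -0.06 ± 0.14 between MEF-derived ieSCs and MEFs did not pass. Of 15 germ cell markers 8 did not pass the filter, and the summed level of the list was 8.997 to 9.23 in TTF-derived ieSCs, 9.48 to 9.67 in MEF-derived ieSCs and 9.51 to 9.58 in MEFs. Cox4i2, the lung form of subunit 4, did not pass in any comparison, with levels between 7.83 and 8.35 on the 10 arrays.

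Ndufa4l2, a paralogue of Ndufa4 known as a target of the hypoxia-inducible factor HIF-1, was lower in TTF-derived ieSCs. Its levels were 8.98, 8.93, 7.61 and 7.77 in TTF-derived ieSCs, 9.60, 9.66, 10.56 and 10.54 in MEF-derived ieSCs and 11.01 and 11.09 in MEFs. The groups did not overlap, but the names within each kind of ieSC lay apart, name 2 lower by -1.26 in TTF-derived and higher by 0.92 in MEF-derived ieSCs. Ndufa4l2 fell by -2.73 ± 0.46 in TTF-derived ieSCs against MEFs (adjusted p = 0.001) and by -1.77 ± 0.38 against MEF-derived ieSCs (adjusted p = 0.0054). Both calls were lost with the arrays of each name averaged (adjusted p = 0.06 and 0.12), and the difference of -0.96 ± 0.46 in MEF-derived ieSCs against MEFs did not pass (adjusted p = 0.11).

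**Figure D3:**
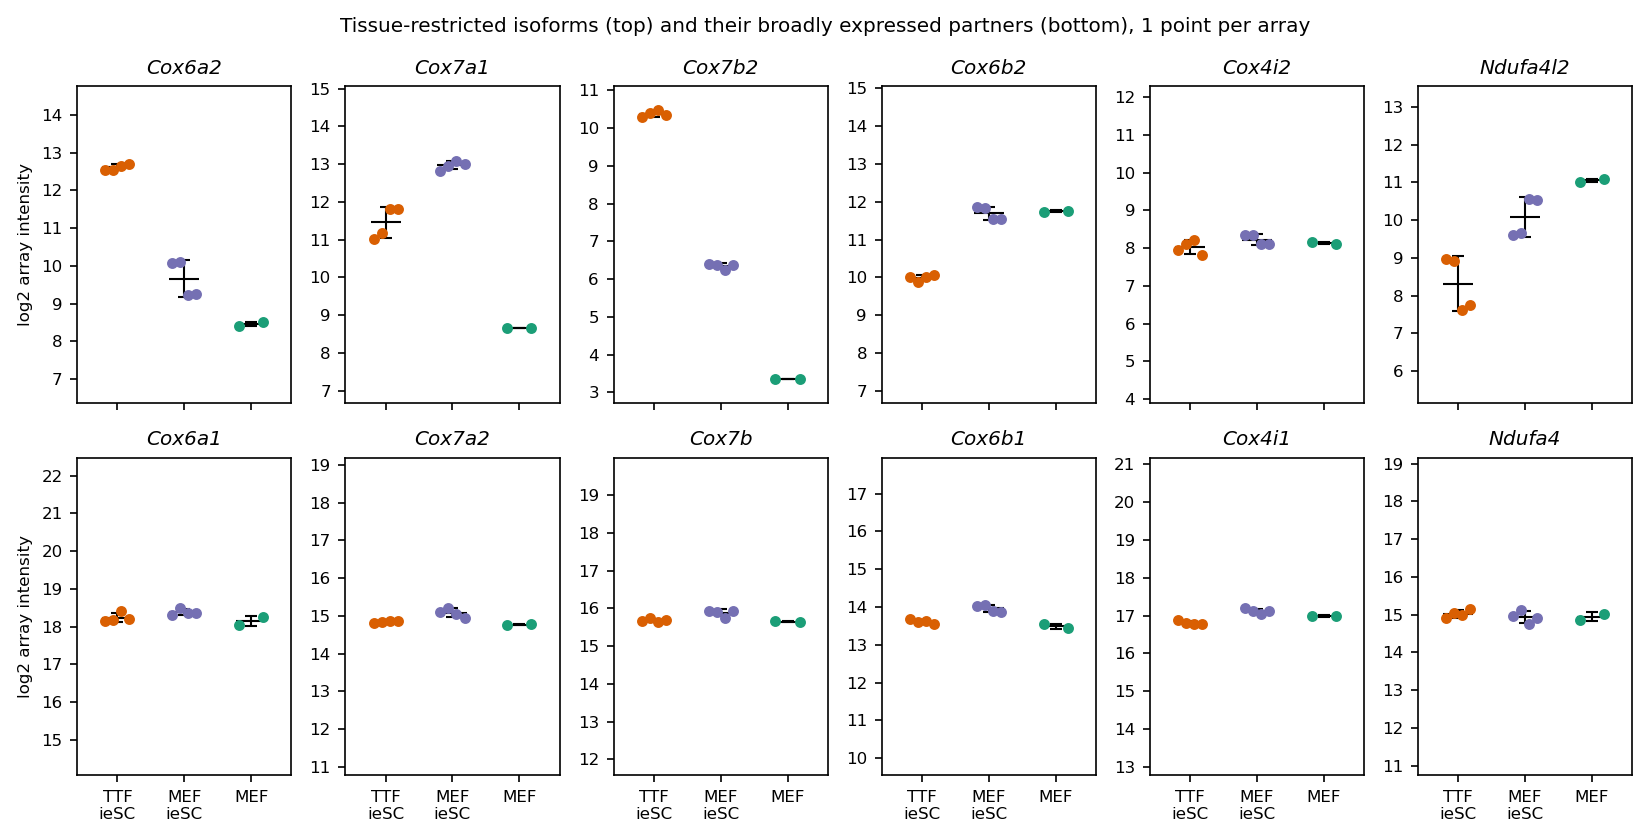
Log2 array intensity of 6 tissue isoforms of complex IV (top) and of their broadly expressed partners (bottom), with 1 point per array for TTF-derived ieSCs, MEF-derived ieSCs and MEFs, and the group mean ± SD in black; every panel spans the same log2 range. The isoforms other than Cox4i2 separate groups, as with Cox7b2 near 10.4, 6.35 and 3.36, while the points of the partners lie almost level.

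ATP synthase had few changes, and they ran in both directions. Of its 17 genes, 1 rose and 2 fell in each comparison, which is 17.6%. Of all genes, 51.2% passed in MEF-derived ieSCs against MEFs, 45.1% in TTF-derived ieSCs against MEFs and 36.0% between the kinds of ieSC. There are 3 genes for the c subunit of the membrane ring, with the same mature protein and different import sequences. Of these Atp5g2 rose while Atp5g1 and Atp5g3 did not pass. Atp5g2 had levels of 18.002, 17.73, 18.11 and 17.77 in TTF-derived ieSCs, 17.47, 17.43, 17.30 and 17.27 in MEF-derived ieSCs and 16.68 and 16.70 in MEFs. The groups did not overlap, in the order TTF-derived ieSCs, MEF-derived ieSCs and MEFs from high to low. The difference from MEFs was 1.21 ± 0.20 in TTF-derived (adjusted p = 0.00098) and 0.67 ± 0.20 in MEF-derived ieSCs (adjusted p = 0.021). The second probe of Atp5g2 gave 0.68 and 0.17 in the same comparisons. The difference of 0.54 ± 0.17 between the kinds of ieSC (adjusted p = 0.031) was lost without MEF-derived array 2a (adjusted p = 0.06) or 2b (adjusted p = 0.06), with averaged names (adjusted p = 0.065) and, at 0.23, with ribosomal centring.

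Atp5o, which encodes the oligomycin sensitivity protein that joins the stalk to F1, fell in both kinds of ieSC. Its levels were 13.35, 13.26, 13.48 and 13.36 in TTF-derived ieSCs, 13.53, 13.35, 13.49 and 13.34 in MEF-derived ieSCs and 14.06 and 14.08 in MEFs. All ieSC arrays lay below both MEF arrays, and the kinds of ieSC overlapped. Atp5o was lower by -0.71 ± 0.15 in TTF-derived (adjusted p = 0.0034) and by -0.64 ± 0.15 in MEF-derived ieSCs (adjusted p = 0.005) than in MEFs, and with ribosomal centring the differences were -0.61 and -0.23 and neither passed. Atp5c1, the central shaft of F1, was lower by -0.46 ± 0.14 in MEF-derived ieSCs than in MEFs (adjusted p = 0.021), which was lost with the mean of its probes (adjusted p = 0.054), with ribosomal centring and with averaged names. Atp5k, a small subunit of the membrane part, was lower by -0.42 ± 0.12 in TTF-derived ieSCs than in MEFs and by -0.37 ± 0.10 than in MEF-derived ieSCs. Both calls of Atp5k were lost with averaged names (adjusted p = 0.088 and 0.097), and that against MEFs with ribosomal centring, at -0.32 (adjusted p = 0.18). Atp5d, another F1 subunit, was lower by -0.31 ± 0.09 in TTF-derived than in MEF-derived ieSCs (adjusted p = 0.022), which was lost with averaged names (adjusted p = 0.13) and without name 1 of the MEF-derived ieSCs (adjusted p = 0.07). The catalytic subunits Atp5a1 and Atp5b, together with Atp5e and Atp5l, did not pass in any comparison. Atpif1, which encodes the inhibitor of the enzyme and is not a subunit gene, did not pass either, at 0.33 ± 0.26 in TTF-derived and -0.03 ± 0.26 in MEF-derived ieSCs against MEFs.

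Separate probes of a gene did not always give the same sign. Of the 26 subunit genes with at least 2 probes above the filter, 7 had probes of both signs in MEF-derived ieSCs against MEFs, 7 in TTF-derived ieSCs against MEFs and 4 between the kinds of ieSC. The median width of the range over probes was 0.17, 0.13 and 0.12 in these comparisons. The 3 probes of Cox7c ranged from -0.74 to 0.13 in MEF-derived ieSCs and from -0.98 to 0.17 in TTF-derived ieSCs against MEFs. The isoforms Cox7b2, Cox7a1, Cox6a2, Cox6b2 and Ndufa4l2 had no second probe above the filter.

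Promoters were available for 69 of the 85 genes, as 74 windows of the same length as those printed above. NRF1 and GABP are the factors best known for binding promoters of respiratory genes. The letters GCATGCGC (NRF1) were found in 10.8% of these windows and in 2.26% of the windows of all genes, and CCGGAAG (GABP) in 16.2% and 6.91%. The hypoxia core ACGTG or GCGTG was in 54.1% of the subunit windows and in 38.6% of all windows, and AAGATGG (YY1) was in 1.35% and 4.49%. Both strands were searched, and matches to different motifs may share bases. The subunit windows had a median GC content of 56.2% against 52.4%, and a median of 14 CG dinucleotides against 6. The letters of NRF1, GABP and the hypoxia core contain CG, and those of YY1 do not. The part of base content in these shares was not tested. All matches to the NRF1 and GABP letters lay in the 70 windows of genes that are not tissue isoforms, and the 4 windows of tissue isoforms had a median GC content of 50.8%. A match is a run of letters and not a measured binding site.

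The assembly factors and the mitochondrial ribosome also had medians below 0 between the kinds of ieSC. Of 48 tested assembly factors, which build the complexes, 17 rose and 1 fell in MEF-derived ieSCs against MEFs, 11 rose and 8 fell in TTF-derived ieSCs against MEFs, and 2 rose and 19 fell in TTF-derived against MEF-derived ieSCs, with medians of 0.23, -0.06 and -0.24. Of 77 genes of the mitochondrial ribosome, which translates the subunits encoded in mitochondria, 18 rose and 4 fell, 6 rose and 8 fell, and 3 rose and 21 fell in the same order, with medians of 0.13, -0.02 and -0.14. The medians of both lists against MEFs in TTF-derived ieSCs are smaller than the shift of 0.10 that ribosomal centring gives. In the same order of comparisons, 37.5%, 39.6% and 43.8% of the assembly factors passed. Of the mitochondrial ribosome genes 28.6%, 18.2% and 31.2% passed, and of all genes 51.2%, 45.1% and 36.0%. These lists were not compared with the subunit genes by a test. Among the assembly factors, Cox18 (0.88 ± 0.12) and Ndufaf3 (0.86 ± 0.14) rose in MEF-derived ieSCs, Coa4 fell by -0.96 ± 0.14 in TTF-derived ieSCs against MEFs, and Uqcc2 was lower by -0.81 ± 0.12 in TTF-derived than in MEF-derived ieSCs.

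Electron carriers and fuel enzymes moved gene by gene. Of 8 carriers and ubiquinone-linked enzymes, 5 rose and 1 fell in MEF-derived ieSCs and 4 rose and none fell in TTF-derived ieSCs against MEFs. That is 75% and 50%, against 51.2% and 45.1% of all genes. Sqor, which feeds electrons from sulphide to ubiquinone, was 2.25 ± 0.23 higher in TTF-derived and 1.48 ± 0.23 higher in MEF-derived ieSCs. Cyct, the testis form of cytochrome c, was higher by 1.89 ± 0.19 in MEF-derived ieSCs than in MEFs and lower by -1.24 ± 0.15 in TTF-derived than in MEF-derived ieSCs. Its mean levels were 4.88 in TTF-derived ieSCs, 6.12 in MEF-derived ieSCs and 4.24 in MEFs, and those of TTF-derived ieSCs and MEFs lie below the filter level. Of 16 genes of the tricarboxylic acid cycle and pyruvate dehydrogenase, 3 rose and 4 fell in TTF-derived ieSCs and 5 rose and 3 fell in MEF-derived ieSCs against MEFs. That is 43.8% and 50%, close to the 45.1% and 51.2% of all genes. Ppargc1a, a coactivator of mitochondrial biogenesis, was lower by -2.19 ± 0.43 in MEF-derived ieSCs than in MEFs and higher by 2.06 ± 0.35 in TTF-derived than in MEF-derived ieSCs. Its mean levels were 5.89 in TTF-derived ieSCs, 3.84 in MEF-derived ieSCs and 6.03 in MEFs, so that of MEF-derived ieSCs lies below the filter level and both differences depend on the dim end of the scale. The 20 biogenesis regulators had a median of 0.13 between the kinds of ieSC, with 5 higher and 1 lower in TTF-derived cells. The share that passed was 30%, against 36.0% of all genes. Twnk, the helicase of mitochondrial DNA, was 1.27 ± 0.13 and 0.91 ± 0.13 higher than in MEFs in TTF-derived and in MEF-derived ieSCs.

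**Figure D4:**
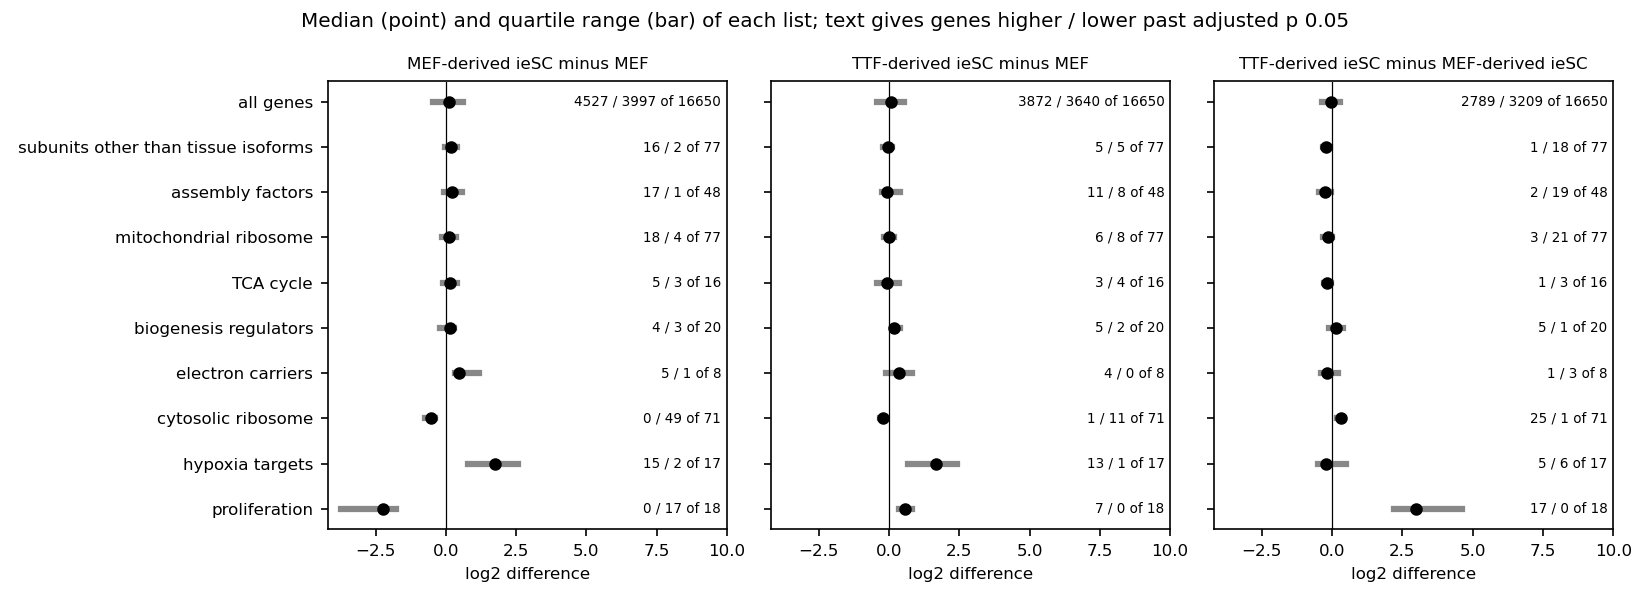
Median (point) and interquartile range (bar) of the log2 differences of the subunit genes and of other gene lists in the 3 comparisons, with the number of genes that passed as higher and as lower at the right of each row. The subunit genes, assembly factors and mitochondrial ribosome lie near 0, whereas proliferation genes lie near -2.22 in the left panel and 2.96 in the right panel, and hypoxia targets near 1.74 and 1.67 in the left and middle panels.

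Other gene groups that moved with the same comparisons were larger in size. Of 18 proliferation genes, 17 were higher in TTF-derived than in MEF-derived ieSCs, with a median of 2.96, and 17 were lower in MEF-derived ieSCs than in MEFs, with a median of -2.22. Of 71 cytosolic ribosomal protein genes, 25 were higher and 1 lower in TTF-derived than in MEF-derived ieSCs, the comparison in which 21 of the 83 subunit genes were lower. The share of these ribosomal genes that passed was 36.6%, close to the 36.0% of all genes. The part of proliferation in the difference between the kinds of ieSC was not tested. Of 17 hypoxia targets, 13 rose and 1 fell in TTF-derived ieSCs and 15 rose and 2 fell in MEF-derived ieSCs against MEFs. Egln3, an oxygen-sensing hydroxylase induced by HIF, rose by 5.52 ± 0.37 in TTF-derived ieSCs against MEFs. Adm, of the same list, averaged 11.83 in TTF-derived ieSCs, 7.28 in MEF-derived ieSCs and 13.40 in MEFs. The relation of Ndufa4l2 to these genes was not tested.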

How the data were processed

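Total RNA was measured on 10 Agilent arrays (4 of TTF-derived ieSCs, 4 of MEF-derived ieSCs, 2 of MEFs), grouped by source name. The authors deposited a table of log2 intensities for 62976 probes. The submitters' processing notes name limma, and the sources used here do not give the background correction. The deposited log2 columns differ in their sorted values by at most 0.0379 above the 40th percentile, so overall changes in mRNA content are removed. No detection flags were used.

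Symbols came from the platform annotation, updated through RefSeq (GRCm38.p6), which renamed 3282 probes. Probes above the 40th percentile of their array on at least 2 arrays were kept, and a gene was represented by its kept probe with the highest mean. Cox4nb, Atp5s and Atp5sl matched the rule only under old symbols and were left out.

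The test was limma 3.58.1 run in R 4.3.3 (group means over 10 arrays, array name as random block with consensus correlation 0.606, Benjamini-Hochberg adjustment over 16650 genes, threshold 0.05). The fit had 7 residual degrees of freedom, and the number of arrays limits the precision. Data were simulated as MEF-derived ieSCs against MEFs over 16650 genes, with the same spread for every gene and few genes changed. In them, 91% of changes of 1 and 100% of changes of 2 on the log2 scale were recovered, with 25 false calls. These rates need not hold for the measured genes, whose spreads differ. The subunit genes and all other lists were chosen with earlier results of these data known. Named genes were the isoform families, the core subunits, and in each complex and comparison up to 3 of the largest rises and falls that passed without overlap. Cox6c was taken up because it is one of the 8 genes higher in both kinds of ieSC, and of each other list up to 3 genes with the smallest p. The remaining complex I genes that passed are named with their range. Cox5a and Cox7c are named for the spread of their arrays or probes. Names 1 and 2 were not taken to pair the kinds of ieSC, as the differences between names correlated at 0.30 over the genes with only 2 pairs. The alternatives were other filters, probe rules, centrings, normalization and blocks, and leaving out each array or name.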

Additional observations from a re-analysis of the deposited data

Results flagged for a closer look

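Within groups of 4 arrays, 5 subunit levels stood apart from the other 3 arrays by most of the group's range. Chance flags about 1 in 20 groups in this way, and 102 such groups were looked at. On MEF-derived array 2a, Cox7b was at 15.75 (other arrays 15.91 to 15.94), Cox7b2 at 6.25 (6.38 to 6.40) and Ndufv1 at 15.52 (15.68 to 15.70). On TTF-derived array 2b, Ndufs1 was at 14.52 (14.30 to 14.34), and on TTF-derived array 1a, Sdhb was at 15.12 (15.27 to 15.28).

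The kinds of ieSC moved in opposite directions against MEFs for Ndufa11b, at -0.45 in TTF-derived and 0.45 in MEF-derived ieSCs, with a tested difference between them of -0.90 (limma, adjusted p = 0.00025). Both comparisons use the same 2 MEF arrays.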

How the results depend on the processing

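No named comparison that passed changed sign under the alternatives run for it, while the median of the subunit genes in TTF-derived ieSCs against MEFs changed sign with ribosomal centring. The counts of subunit genes that passed were 21 in MEF-derived ieSCs against MEFs, 15 in TTF-derived ieSCs against MEFs and 24 between the kinds of ieSC, and leaving out single arrays gave 19 to 22, 15 to 18 and 22 to 25. Without the random block the counts were 36, 28 and 48. With averaged names, which leaves 5 samples, they were 12, 11 and 9. With arrays centred on ribosomal protein genes they were 50 (50 higher, 0 lower), 12 (8 higher, 4 lower, against 8 and 7) and 53 (2 higher, 51 lower). A replicate block by name number gave 51 between the kinds of ieSC (5 higher, 46 lower), with no random block. The numbers were not taken as pairs.

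The medians moved beyond the spread between arrays in 10 cases. Ribosomal centring gave 0.59, 0.056 and -0.54 against 0.18, -0.04 and -0.23, which the shift of all genes accounts for by construction. Centring on the median of kept genes gave 0.24 (MEF-derived ieSCs against MEFs) and -0.016 (TTF-derived ieSCs against MEFs). The mean of all kept probes gave -0.022 for TTF-derived ieSCs against MEFs. Without name 1 of the TTF-derived ieSCs the median against MEFs was -0.024. Without name 1 of the MEF-derived ieSCs it was 0.11 against MEFs and -0.16 between the kinds of ieSC, and without name 2 it was 0.22 against MEFs; the cause was not tested. Leaving out single arrays gave medians of 0.14 to 0.19, -0.06 to -0.03 and -0.24 to -0.21.

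Among 147 named comparisons, 69 of 3577 alternative fits lost a call and 115 gained one, with 21 of the losses under averaged names. Signal over background limits Cox7b2 in MEFs, Cox8b and Cox8c.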
